A study of Homo sapiens with 4 samples.

Results

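The genes described here are 10 listed markers of breast cancer stem-like cells and enzymes that oxidize aldehydes, namely CD44, CD24, PROM1, ALDH1A1, ALDH1A2, ALDH1A3, ALDH1B1, ALDH2, AOX1 and BMI1. They were taken by name from the values of 18417 genes that had a probe set annotated to that gene alone, using the probe set with the highest mean and no intensity filter. By this rule 9 of the 10 had a value. BMI1, a Polycomb subunit, had none, because its probe set also names the readthrough gene COMMD3-BMI1. The study measured 4 groups with 1 Affymetrix array each: MDA-MB231 cells expressing FBP1, MDA-MB231 control cells, Hs578T cells expressing FBP1 and Hs578T control cells. Both are established human lines labelled as basal-like breast cancer, all were cultured in DMEM/F12 with serum, and FBP1 encodes the gluconeogenic enzyme fructose-1,6-bisphosphatase. The FBP1 cells were selected as stable clones. How many clones went into an array, and whether the control cells carried an empty vector, is not stated in the labels.

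CD44 is a cell surface receptor for hyaluronan, and CD24 is a small, heavily glycosylated surface protein. In breast tumours, cells with high CD44 and low or absent CD24 protein, or with high aldehyde dehydrogenase activity, are enriched for the capacity to start new tumours. Activity assays of this kind are known to read several isoenzymes, among them ALDH1A1 and ALDH1A3. ALDH1A1, ALDH1A2 and ALDH1A3 oxidize retinaldehyde to retinoic acid, the ligand of the nuclear retinoic acid receptors. ALDH1B1 and ALDH2 are mitochondrial enzymes, and ALDH2 clears the acetaldehyde formed from ethanol. AOX1 is a cytosolic molybdenum enzyme that oxidizes aldehydes and nitrogen-containing rings.

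The stretch of 250 bases before the annotated start is shown for 3 of these genes. AOX1 and ALDH1A3 had the largest FBP1 minus control differences of the list, and ALDH1A1 is the family's best-known stem-like marker. Capitals mark GC boxes (GGGCGG) and CCAAT boxes on either strand, and overlapping GC boxes run together. Sequences are RefSeq's on GRCh38.p14, where 9 of the 10 genes had an entry; ALDH2 is named only. The AOX1 stretch is chr2:200585764-200586013 on the plus strand, that of ALDH1A3 is chr15:100879581-100879830 on the plus strand, and that of ALDH1A1 is chr9:72953054-72953303 on the minus strand.
AOX1: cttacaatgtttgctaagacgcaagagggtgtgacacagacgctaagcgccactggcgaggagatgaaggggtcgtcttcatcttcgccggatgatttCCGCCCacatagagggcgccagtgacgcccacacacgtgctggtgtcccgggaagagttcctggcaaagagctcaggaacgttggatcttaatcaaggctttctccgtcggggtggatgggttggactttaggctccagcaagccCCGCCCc
ALDH1A3: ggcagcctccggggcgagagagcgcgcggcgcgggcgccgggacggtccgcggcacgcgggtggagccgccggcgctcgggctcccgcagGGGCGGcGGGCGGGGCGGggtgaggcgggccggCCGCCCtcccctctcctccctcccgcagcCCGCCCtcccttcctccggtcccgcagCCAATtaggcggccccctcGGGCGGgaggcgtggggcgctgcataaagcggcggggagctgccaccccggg
ALDH1A1: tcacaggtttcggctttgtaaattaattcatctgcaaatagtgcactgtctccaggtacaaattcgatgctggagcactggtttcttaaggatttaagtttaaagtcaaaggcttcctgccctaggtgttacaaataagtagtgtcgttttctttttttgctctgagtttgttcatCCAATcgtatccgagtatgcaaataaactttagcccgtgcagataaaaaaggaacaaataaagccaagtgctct
The stretches differ in base composition. G and C made up 57.6% of the AOX1 stretch, 82.4% of the ALDH1A3 stretch and 38.4% of the ALDH1A1 stretch, against a median of 58.0% over 35116 such stretches. ALDH1A3 held 6 GC boxes and 1 CCAAT box, AOX1 held 2 GC boxes and no CCAAT box, and ALDH1A1 held 1 CCAAT box and no GC box. A GC box was present in 42.6% and a CCAAT box in 32.0% of all stretches. The core letters of the antioxidant response element (TGACNNNGC, both strands) were in 10.9% of all stretches and in none of the 3 shown. Of the 9 listed genes with an entry, 3 held these letters before a start, namely CD44, CD24 and PROM1. These matches describe letters and do not show that a factor binds there.

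The labels were checked first. FBP1 stood at 13.07 log2 in MDA-MB231 with FBP1, against 9.83 in the MDA-MB231 control, and at 13.35 in Hs578T with FBP1, against 6.35 in the Hs578T control. Arrays of the same line correlated at 0.9942 and 0.9962 over probe sets, and arrays of different lines at 0.9613 to 0.9637. The deposited values carry no detection calls, so a mark for dim signal was set at the 95th percentile of 341 olfactory receptor genes, whose expression is known to be restricted to olfactory neurons. It lay between 7.04 and 7.34 log2 on the 4 arrays. FBP1 was below the mark on 1 array, the Hs578T control. The introduced gene was thus 9.44-fold above control in MDA-MB231 and at least 69.6-fold above it in Hs578T. Probes differ in brightness, so the mark is a guide and levels of different genes were not ranked. Of 10 listed basal-like markers, 5 were measured. KRT5 and TRIM29 were at or below the mark on all arrays, while EGFR and KRT14 were above it. CDH3 was above it in MDA-MB231 (7.93 with FBP1 and 8.18 in the control) and below it in Hs578T (7.17 and 6.94). All 8 mesenchymal markers, VIM among them, were above the mark on every array. Of 15 luminal markers, 4 were at or below it on every array, the hormone receptor genes ESR1 and PGR among them. Another 9 were above it on every array. Of 9 measured leukocyte markers, 6 were at or below the mark on every array, PTPRC among them. The other 3, CD14, CD68 and CSF1R, were above it on every array.

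Of the 9 genes with a value, CD44, CD24, ALDH1A3, ALDH1B1 and ALDH2 were above the mark on all 4 arrays. AOX1 was below it on 1 array, the Hs578T control. PROM1, ALDH1A1 and ALDH1A2 were at or below it on all 4 arrays, so these data do not show a signal of these 3 genes in either line. Small differences between their values are given for completeness.

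**Figure D1:**
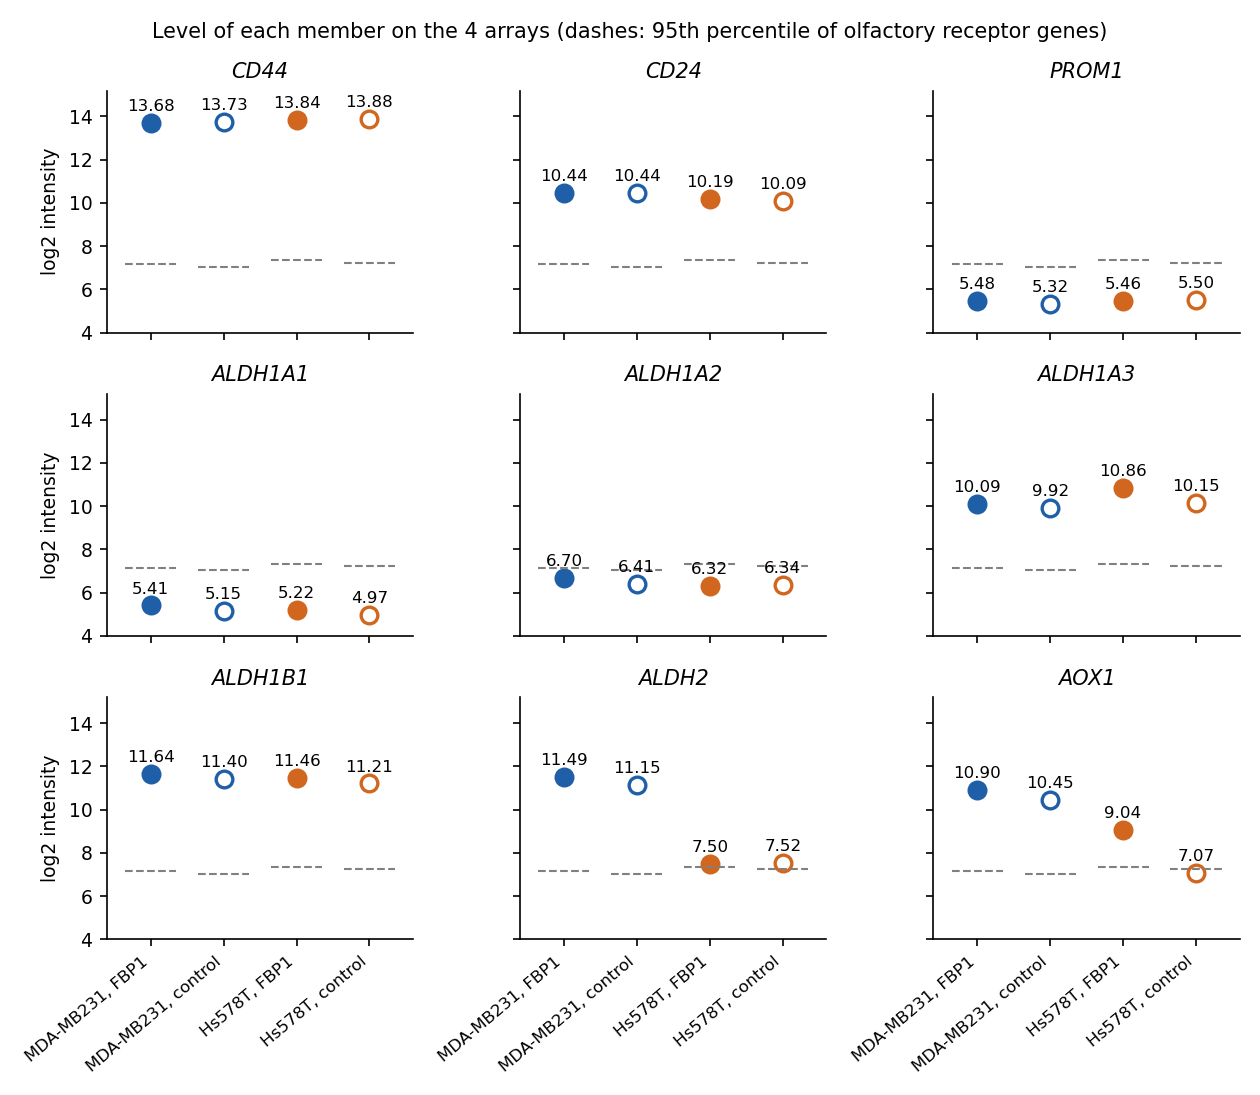
Log2 intensity (vertical axis) of the 9 genes on the 4 arrays (filled points, FBP1; open points, control; blue, MDA-MB231; orange, Hs578T), with the dim mark of each array as dashes. CD44 is nearly level across arrays, ALDH2 and AOX1 separate the lines, and PROM1, ALDH1A1 and ALDH1A2 lie below the dashes.

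Of the surface markers, CD44 (chromosome 11, 35139171 to 35232402) had log2 intensities of 13.68 in MDA-MB231 with FBP1, 13.73 in the MDA-MB231 control, 13.84 in Hs578T with FBP1 and 13.88 in the Hs578T control. The 4 values spanned 0.20, with both MDA-MB231 values below both Hs578T values. CD24 (chromosome 6, 106969831 to 106976855) had 10.44, 10.44, 10.19 and 10.09 on the same arrays, with both MDA-MB231 values above both Hs578T values. CD24 has processed copies of similar sequence elsewhere in the genome, so its value is uncertain. PROM1, which encodes the pentaspan membrane protein CD133, ranged over 5.32 to 5.50. FBP1 minus control for CD44 was −0.05 in MDA-MB231 and −0.04 in Hs578T, and for CD24 it was 0.00 and 0.10. All 4 of these differences were within 0.10 of 0. The array probes were summarised per gene, so CD44 splice forms, which differ in their variable exons, were not separated, and each value averages a culture, so fewer cells of a type and less RNA per cell cannot be told apart.

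Among the retinaldehyde dehydrogenases, ALDH1A3 (chromosome 15, 100879831 to 100916626) was the only one above the dim mark. Its log2 intensity was 10.09 in MDA-MB231 with FBP1, 9.92 in the MDA-MB231 control, 10.86 in Hs578T with FBP1 and 10.15 in the Hs578T control. The array of Hs578T with FBP1 thus stood above the other 3, which lay within 0.23 of each other. ALDH1A1 ranged over 4.97 to 5.41 and ALDH1A2 over 6.32 to 6.70. ALDH1A3 had a further probe set at 7.91, 7.79, 7.84 and 7.71 in the same order. FBP1 minus control in Hs578T was 0.13 on that probe set and 0.71 on the other, so the probe sets of this gene disagreed.

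Of the mitochondrial enzymes, ALDH1B1 had 11.64 in MDA-MB231 with FBP1, 11.40 in the MDA-MB231 control, 11.46 in Hs578T with FBP1 and 11.21 in the Hs578T control. The ALDH1B1 values spanned 0.43, with the FBP1 array above its control in both lines. ALDH2 (chromosome 12, 111766933 to 111817532) had 11.49 and 11.15 in MDA-MB231 with FBP1 and control, and 7.50 and 7.52 in Hs578T with FBP1 and control. The lines did not overlap, and the Hs578T values lay just above the dim marks of 7.34 and 7.23. AOX1 (chromosome 2, 200586014 to 200682241) had 10.90 in MDA-MB231 with FBP1, 10.45 in the MDA-MB231 control, 9.04 in Hs578T with FBP1 and 7.07 in the Hs578T control. All 4 AOX1 values stood apart, with the Hs578T control lowest and below its dim mark of 7.23.

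Which of these transcripts distinguish the lines was asked with limma over all 4 arrays, with terms for line and construct, and called at a Benjamini-Hochberg adjusted p under 0.05 over all 18417 genes. ALDH2 was higher in MDA-MB231, with means of 11.32 and 7.51 log2 in MDA-MB231 and Hs578T. The difference was 3.81 with a standard error of 0.13 (limma adjusted p = 9.56e-06). AOX1 was higher in MDA-MB231, with means of 10.67 in MDA-MB231 and 8.06 in Hs578T and a difference of 2.62 ± 0.32 (standard error, limma adjusted p = 0.0016). Because 1 of the Hs578T values lay below its dim mark, the fold is given as a bound, at least 5.82-fold with that value raised to the mark. ALDH1A3 was 1.41-fold lower in MDA-MB231, with means of 10.01 in MDA-MB231 and 10.51 in Hs578T and a difference of −0.50 ± 0.15 (standard error, limma adjusted p = 0.0406). With the probe sets of a gene averaged, the ALDH1A3 difference was −0.21 (limma adjusted p = 0.221) and the call was lost. It was also lost with the construct left out of the fit (0.148), after quantile normalization (0.0554) and after median centring (0.0506). The fit has 1 residual degree of freedom, given by how alike the FBP1 differences of the lines were. Another 5.09 come from the variance prior over all genes, so the p-values rest mostly on that prior. The separate cultures behind the arrays are not stated.

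The other genes of the list were not called. CD44 differed by −0.16 between MDA-MB231 and Hs578T (95% interval −0.29 to −0.02, limma adjusted p = 0.0727), and was called after quantile normalization (0.0341) and median centring (0.0438). CD24 differed by 0.30 (0.06 to 0.54, limma adjusted p = 0.0577), and was called with genes below the 50th percentile of intensity left out (0.0443) and without the construct term (0.0397). ALDH1B1 differed by 0.19 (−0.02 to 0.39), and the limma adjusted p was 0.143. In all, 3 of the 9 genes were called, 2 higher and 1 lower in MDA-MB231, where 36.0% of all genes were called (19.0% higher and 16.9% lower). The share of the list is close to that background. Line-identity markers differed between the lines as well. All 10 fibroblast markers were called lower in MDA-MB231. Their summed levels were 10.80 and 10.88 log2 in MDA-MB231, against 15.45 and 15.43 in Hs578T. Of 15 luminal markers, 8 were called higher in MDA-MB231 and 1 lower. Of 8 mesenchymal markers, 6 were called lower and 0 higher. The part of these markers in the differences of the listed genes was not tested.

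**Figure D2:**
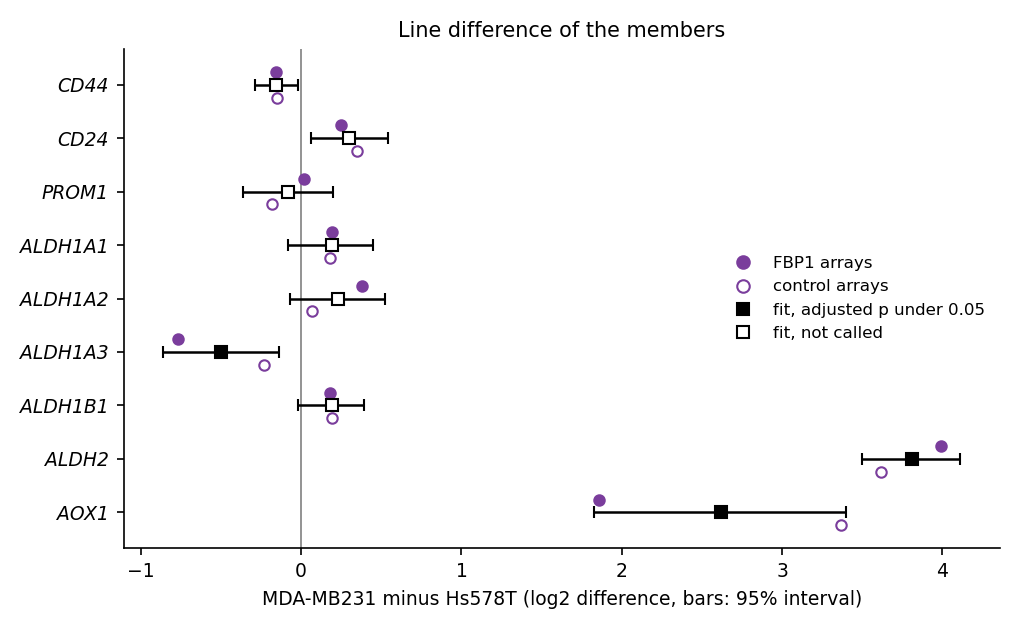
MDA-MB231 minus Hs578T (horizontal axis, log2 difference) for the 9 genes: squares are the limma estimates with 95% intervals, filled where the adjusted p is under 0.05, and circles are the FBP1 arrays (filled) and control arrays (open) alone. ALDH2 and AOX1 stand far to the right, and the circles of AOX1 lie 1.86 and 3.37 from 0.

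The AOX1 line difference was 1.86 log2 between the FBP1 arrays (3.63-fold higher in MDA-MB231) and 3.37 between the control arrays. The Hs578T control value was below its dim mark, so the control difference is a bound: with that value raised to the mark, MDA-MB231 was at least 9.32-fold higher (3.22 log2). ALDH2 was 15.9-fold higher between the FBP1 arrays and 12.3-fold higher between the control arrays. For ALDH1A3 the differences were −0.77 between the FBP1 arrays and −0.23 between the control arrays. These sizes have no replicate check.

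FBP1 cells were then compared with control cells within each line. In MDA-MB231, 0 of the 9 genes differed by 1.5-fold or more (0.585 log2), where 0.353% of all genes were higher by that size and 0.337% lower. At 2-fold the shares of all genes were 0.0434% higher and 0.0217% lower, again with 0 of the 9. The values ran from −0.05 for CD44 to 0.45 for AOX1, with ALDH2 at 0.35, ALDH1A2 at 0.30, ALDH1A1 at 0.26, ALDH1B1 at 0.24, ALDH1A3 at 0.17 and PROM1 at 0.16. Of the 9 genes, 8 lay above 0, against 48.6% of all genes, and the median was 0.24, against 0.00 over all genes. The 8 include CD24, whose difference rounds to 0.00, and the 3 genes below the dim mark, and the other 4 were ALDH1A3, ALDH1B1, ALDH2 and AOX1. All but AOX1 lay within 0.35 of control in either direction.

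In Hs578T, 2 of the 9 genes were at least 1.5-fold higher with FBP1 and none lower, where 1.40% of all genes were higher and 1.57% lower by that size. The list was chosen with the AOX1 difference in Hs578T already known, so these counts do not test the list against all genes. At 2-fold the 1 listed gene was AOX1, where 0.271% of all genes were higher and 0.424% lower. AOX1 was 1.96 log2 above a control value that was itself below the dim mark, which is at least 3.51-fold higher when the control is raised to the mark. ALDH1A3 was 1.64-fold higher (0.71), or 0.42 log2 with its probe sets averaged, which is under 1.5-fold. ALDH1A1 and ALDH1B1 stood at 0.25 each, CD24 at 0.10, ALDH1A2 and ALDH2 at −0.02 and CD44 and PROM1 at −0.04. The median of the 9 genes was 0.10, against 0.03 over all genes, and 5 lay above 0, against 55.8%. Those 5, CD24, ALDH1A1, ALDH1A3, ALDH1B1 and AOX1, were above 0 in both lines, where 27.8% of all genes were above 0 in both. CD24 rounds to 0.00 in MDA-MB231 and ALDH1A1 was below the dim mark throughout, which leaves 3 of the 5. A test within a line was not possible with 1 array per group.

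**Figure D3:**
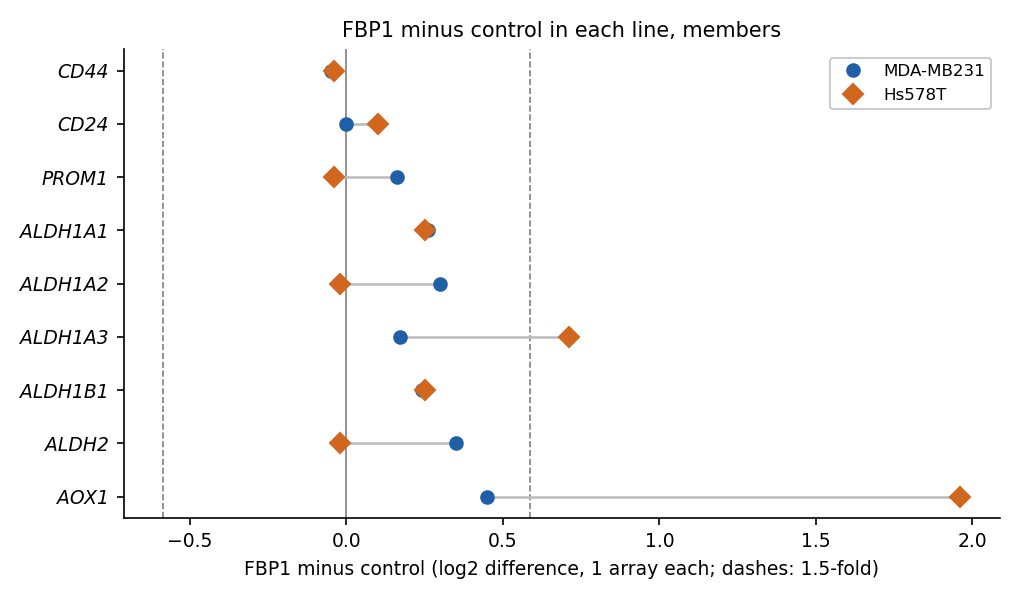
FBP1 minus control (horizontal axis, log2 difference of 1 array each) for the 9 genes in MDA-MB231 (circles) and Hs578T (diamonds), with dashes at 1.5-fold. The diamonds of ALDH1A3 (0.71) and AOX1 (1.96) lie beyond the dashes, and all circles lie between them.

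Over both lines together, limma called 0 of 18417 genes for the construct, with 966 genes (5.25%) at an unadjusted p under 0.05 against 920.9 by chance, so none of the 9 was called. The introduced gene itself had a limma adjusted p of 0.936, so the absence of calls says little. AOX1 had a mean difference of 1.21 (95% interval 0.42 to 1.99, limma adjusted p = 0.936). ALDH1A3 had 0.44 (0.08 to 0.80) and ALDH1B1 0.25 (0.04 to 0.45), each with a limma adjusted p of 0.936. FBP1 minus control for ALDH1B1 was alike in the lines, at 0.24 in MDA-MB231 and 0.25 in Hs578T. FBP1 minus control in Hs578T less that in MDA-MB231 was 1.51 for AOX1, 0.54 for ALDH1A3 and −0.37 for ALDH2. These differences between lines were not tested, since they use up the residual of the fit. The difference of FBP1 itself was also unlike in the lines, at 3.24 log2 in MDA-MB231 and at least 6.12 in Hs578T.

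AOX1 and ALDH2 began from a like difference between the control arrays. ALDH2 was 12.3-fold higher in the MDA-MB231 control than in the Hs578T control, and AOX1 at least 9.32-fold. With FBP1 in Hs578T they differed from each other, at 1.96 log2 above control for AOX1 and −0.02 for ALDH2.

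**Figure D4:**
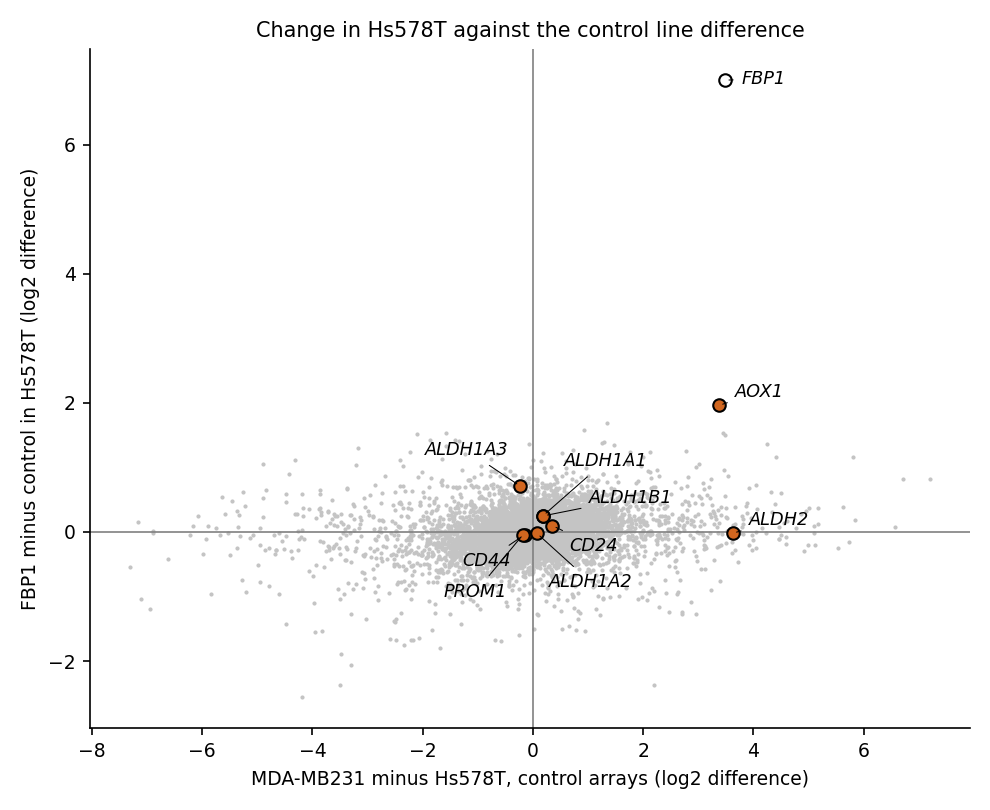
FBP1 minus control in Hs578T (vertical axis, log2 difference) against MDA-MB231 minus Hs578T on the control arrays (horizontal axis, log2 difference), for all genes (grey) and the 9 genes (orange), with FBP1 open. Both axes use the Hs578T control array, so they are not independent, and AOX1 (1.96) and ALDH2 (−0.02) lie at similar positions on the horizontal axis, 3.37 and 3.62.

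Genes with the most similar profiles were sought by the Euclidean distance between mean-centred log2 values over the 4 arrays, among genes that ranged over at least 1 log2. Of the listed genes, ALDH2 and AOX1 ranged that far. The 3 nearest to AOX1 among 2449 genes were the hyaluronan synthase gene HAS2 (distance 0.67), MAL2 (0.70) and SHISA3 (0.76). In Hs578T with FBP1 and control, MAL2 had 10.89 and 9.39 log2 and SHISA3 had 7.49 and 6.43. The SHISA3 value in the Hs578T control lay below the dim mark of 7.23, as did that of AOX1. In MDA-MB231 with FBP1 and control, MAL2 had 12.44 and 12.86 log2 and SHISA3 had 9.37 and 9.44. The 3 nearest to ALDH2 were SLAIN1 (0.13), TSPYL5 (0.17) and the class II histocompatibility gene HLA-DPB1 (0.18). In Hs578T with FBP1 and control, SLAIN1 had 5.37 and 5.30 log2 and TSPYL5 had 6.16 and 6.03, all below the dim marks. The distances of SLAIN1 and TSPYL5 thus rest partly on dim signal.

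The other aldehyde dehydrogenases gave no difference of 1.5-fold with FBP1 in either line. By that size, 0.353% of all genes were higher and 0.337% lower in MDA-MB231, and 1.40% and 1.57% in Hs578T. The list is close to that background. Of 14 measured, 5 were called between lines, 1 higher and 4 lower in MDA-MB231, a share of 35.7% against 36.0% of all genes. ALDH1L2, a mitochondrial folate enzyme, had 6.53 and 6.53 log2 in MDA-MB231 with FBP1 and control, and 10.86 and 11.21 in Hs578T with FBP1 and control (difference −4.51, limma adjusted p = 6.12e-06). The MDA-MB231 values lay below the dim mark, and raised to it they leave ALDH1L2 at least 15.3-fold lower, opposite to ALDH2. The fatty aldehyde dehydrogenase gene ALDH3A2 differed by −0.86 (limma adjusted p = 0.00105), and ALDH6A1, which acts in valine breakdown, by 0.82 (limma adjusted p = 0.00159). The FBP1 minus control values of the 14 ran from −0.07 to 0.25 in MDA-MB231 and from −0.34 to 0.24 in Hs578T. ALDH6A1 was at 0.25 and 0.22, ALDH5A1, the succinic semialdehyde enzyme, at 0.03 and −0.26, and ALDH1L2 at 0.00 and −0.34.

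AOX1 needs the molybdenum cofactor and a sulfur atom that the sulfurase MOCOS adds to it. Of 9 genes of molybdenum enzymes and cofactor synthesis, 7 were called between lines, 6 of them higher in MDA-MB231, against 36.0% of all genes called and 19.0% called higher. Of the 6, XDH, another molybdenum enzyme, was at or below the dim mark on all 4 arrays. MOCOS had 9.99 and 9.83 log2 in MDA-MB231 with FBP1 and control, against 7.77 and 7.52 in Hs578T with FBP1 and control (difference 2.26, limma adjusted p = 3.32e-05). The amidoxime reductase genes MTARC2 and MTARC1, which encode other molybdenum enzymes, differed by 2.30 and 1.66 (limma adjusted p = 3.97e-05 and 0.000124), with both Hs578T values of each at or below the dim mark. Raised to the mark, those values leave MTARC2 at least 1.72-fold and MTARC1 at least 2.20-fold higher in MDA-MB231. None of the 9 reached 1.5-fold with FBP1 in either line. Few of all genes did, 0.353% higher and 0.337% lower in MDA-MB231 and 1.40% and 1.57% in Hs578T. In Hs578T, MOCOS stood at 0.25, the scaffold gene GPHN at −0.35, the cofactor synthesis genes MOCS3 and MOCS1 at −0.27 and −0.10, and the list's median was 0.02. MOCS1 and MOCS3 stood at 0.31 and −0.24 in MDA-MB231.

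Retinoic acid is the product of ALDH1A3, and a further list held genes of retinoid metabolism and retinoid receptors. Not all of them, TGM2 among these, carry, sense or remove retinoic acid itself. Of 20 listed, 16 had a value. In Hs578T, 3 were at least 1.5-fold higher with FBP1 and none lower, beside 1.40% and 1.57% of all genes, and the list's median was 0.22, against 0.03 over all genes. They were the transglutaminase gene TGM2 (10.63 log2 with FBP1 and 9.93 in the control, 0.70), the retinaldehyde reductase gene DHRS3 (10.88 and 10.23, 0.65) and the dehydrogenase gene DHRS9 (7.19 and 6.56, 0.62). DHRS9 was at or below the dim mark on every array. The vitamin A transporter gene STRA6 stood at 0.56, the receptor gene RARB at 0.41 and RDH10, which makes retinaldehyde from retinol, at −0.50. CYP26A1, which breaks retinoic acid down, was at or below the dim mark on every array, at 0.16. CYP26B1, another enzyme that breaks retinoic acid down, was above the mark on every array and stood at −0.13 in Hs578T and −0.32 in MDA-MB231.

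In MDA-MB231 the same genes gave a median of −0.03, against 0.00 over all genes. None was at least 1.5-fold higher and 1 was lower, beside 0.353% and 0.337% of all genes. That gene was CRABP2, which carries retinoic acid to its receptors, at 8.35 log2 with FBP1 and 8.95 in the control (−0.61). TGM2 and DHRS3 stood at 0.10 each, DHRS9 at 0.12, STRA6 at 0.02 and RARB at 0.29. Whether the lines differ in this was not tested. Between lines, 10 of the 16 were called, 6 higher and 4 lower in MDA-MB231, against 36.0% of all genes, among them TGM2 (2.89, limma adjusted p = 4.71e-05), STRA6 (−1.21, limma adjusted p = 0.00149) and RARB (−1.19, limma adjusted p = 0.000349).

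**Figure D5:**
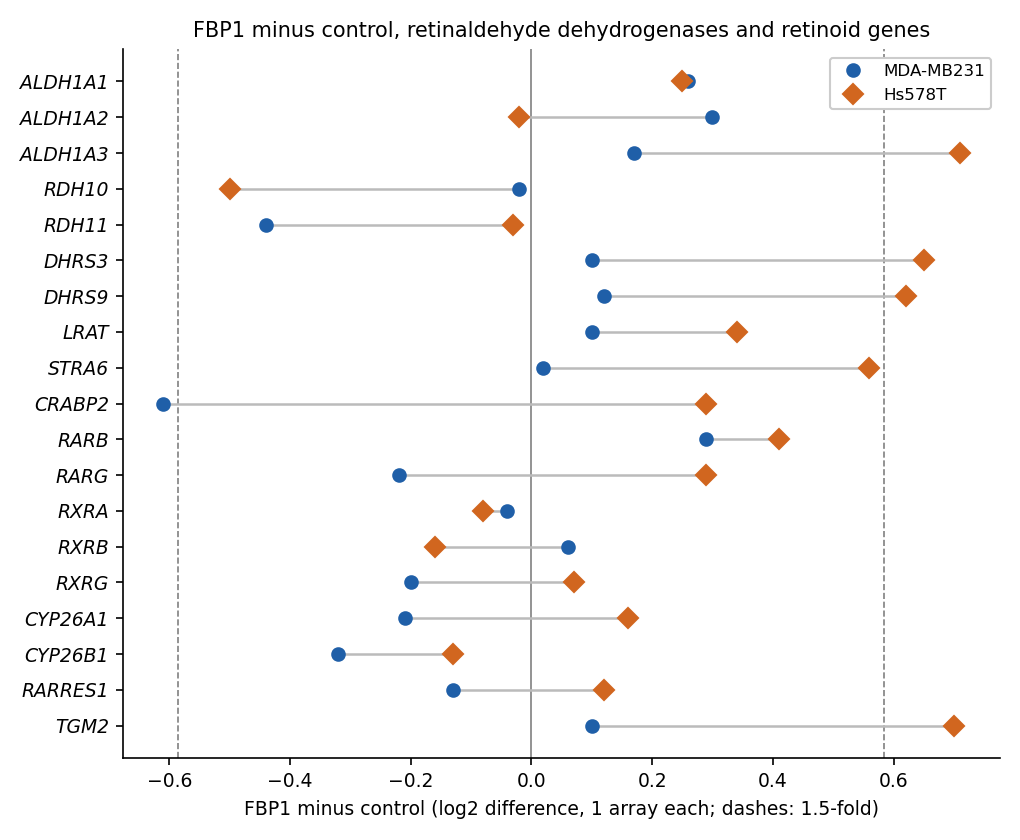
FBP1 minus control (horizontal axis, log2 difference of 1 array each) in MDA-MB231 (circles) and Hs578T (diamonds) for ALDH1A1, ALDH1A2, ALDH1A3 and 16 retinoid genes, with dashes at 1.5-fold. The diamonds of ALDH1A3, DHRS3, DHRS9 and TGM2 lie beyond the upper dashes, and the circle of CRABP2 beyond the lower.

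The receptors for retinoic acid bind direct repeats of a hexamer with a spacer of 5 bases, searched here on both strands as NGNTCA and AGNTCA with 5 bases of any kind between them in the 250 bases before each start. It occurred in 69 of 35116 stretches (0.196%) and in none of the 16 stretches of 9 listed genes. Among the 16 retinoid genes with an entry (33 stretches), 3 held it, RARB, STRA6 and CYP26A1, at 1 start each. The windows show the repeat, which the stretches of ALDH1A3, AOX1 and ALDH1A1 lacked, as did nearly all stretches. Capitals mark the repeat, which runs on the opposite strand in STRA6 and CYP26A1.
RARB: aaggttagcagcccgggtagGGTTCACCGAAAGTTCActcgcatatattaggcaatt
STRA6: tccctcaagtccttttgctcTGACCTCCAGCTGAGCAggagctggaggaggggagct
CYP26A1: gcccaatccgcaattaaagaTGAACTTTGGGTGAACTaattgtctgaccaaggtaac
They lie at chr3:25428190-25428246 (plus strand), chr15:74212403-74212459 (minus strand) and chr10:93073783-93073839 (plus strand) of GRCh38.p14. The first base of the repeat lies 53 bases before the start in RARB, 180 in STRA6 and 90 in CYP26A1. The levels of these 3 genes in Hs578T with FBP1 and control were 11.00 and 10.58 log2 for RARB, 10.79 and 10.23 for STRA6 and 6.32 and 6.16 for CYP26A1. DHRS3 and DHRS9, at 0.65 and 0.62 in Hs578T, held no repeat in the 250 bases before any start. DHRS9 and CYP26A1 were at or below the dim mark on every array. TGM2 (0.70) and RDH10 (−0.50) had no entry and were not searched. Whether the repeat goes with these differences was not tested. A match of letters is not a site of binding, and no binding was measured.

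CD44 binds hyaluronan, and 13 of 18 listed genes for hyaluronan synthesis, breakdown and CD44 partners had a value. Of them 8 were called between lines, 3 higher and 5 lower in MDA-MB231, against 36.0% of all genes. HAS2 had 12.32 and 12.17 log2 in MDA-MB231 with FBP1 and control, 10.64 in Hs578T with FBP1 and 9.39 in the Hs578T control (line difference 2.23, limma adjusted p = 0.000943). In Hs578T it was 2.37-fold higher with FBP1 (1.25 log2), where CD44 itself stood at −0.04. HAS2 was the 1 gene of the 13 at least 1.5-fold higher in Hs578T, where 1.40% of all genes were. VCAN, a hyaluronan-binding proteoglycan, was lower in MDA-MB231, with 6.57 and 5.90 log2 in MDA-MB231 with FBP1 and control, against 13.22 and 13.07 in Hs578T with FBP1 and control (limma adjusted p = 4e-06). Both MDA-MB231 values lay below the dim mark, and raised to it they leave VCAN at least 66.3-fold lower. The FBP1 minus control value of 0.66 in MDA-MB231, the 1 in the list past 1.5-fold there (0.353% of all genes), is between those dim values. TNFAIP6, which links proteins to hyaluronan, differed by −2.21 between MDA-MB231 and Hs578T (limma adjusted p = 0.000137), with both MDA-MB231 values below the dim mark, which makes it at least 1.55-fold lower, and stood at −0.50 with FBP1 in Hs578T. The medians of the list were −0.01 in MDA-MB231 and 0.05 in Hs578T, against 0.00 and 0.03 over all genes.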

How the data were processed

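RNA of 4 samples, 1 for each line and construct, was measured on Affymetrix arrays. The table the authors deposited gives 33297 probe sets on what their range, 2.40 to 14.81, shows to be a log2 scale. The submitters' processing notes name Affymetrix Expression Console (1.1.2800.28061), while its normalization setting was not given in the sources used here. GEO's platform annotation named 1 gene on 19460 probe sets, more on 1754 and no gene on 12083. Symbols were checked against RefSeq by Entrez number, and 0 needed updating. The highest-mean probe set represented each of 18417 genes, 769 of which had several. Array medians were nearly equal, so a change in total RNA per cell would not show.

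Groups followed the labels. The model in limma (3.58.1, under R 4.3.3) held line and construct, with an intensity-trended variance prior (1 residual and 5.09 prior degrees of freedom), tested on simulated data. Within a line, 1 array per group allows only differences, counted at 1.5-fold. The genes, the related lists and the naming rule were chosen with earlier results of these data known; AOX1 and its difference in Hs578T were among those results. From each related list, the 3 largest line differences and the 3 largest FBP1 minus control differences were named; further list genes were named for their roles after their values were seen. For genes below the dim mark on 1 side, bounds added after the values were seen raise each such value to its array's mark. Alternatives covered filters, scaling, probe set averaging, the prior, the model terms and the fold threshold. The number of arrays limits the precision of every value.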

Additional observations from a re-analysis of the deposited data

How the results depend on the processing

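ALDH2 and AOX1 stayed called between lines under every fitted alternative, with adjusted p up to 0.000117 and 0.0179, while ALDH1A3, CD44 and CD24 crossed the threshold under the alternatives named above. No value of the 9 genes changed sign, except that of PROM1 between the FBP1 arrays alone (0.02, against −0.08), which was not called. With genes below the 50th percentile of intensity left out, 27 genes passed 1.5-fold upward and 34 downward in MDA-MB231 (65 and 62 without the filter), and 169 higher and 184 lower in Hs578T (257 and 290), because fewer genes were counted. At 2-fold, the counts were 8 and 4 in MDA-MB231 and 50 and 78 in Hs578T. Of the 9 genes, 1, AOX1, was counted as higher in Hs578T at 2-fold, and 1 with probe sets averaged. Without the cell line term (no replicate block), limma called 0 genes for the construct, as with it. The fit over both lines holds the cell line as its block, and the labels give no other replicate numbers. Signal near the dim mark limits ALDH1A1, ALDH1A2, PROM1, ALDH2 in Hs578T and AOX1 in the Hs578T control.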

Other observations

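Other genes used as stem-like cell markers were often called between the lines. Of 22 measured, limma called 17, 7 higher and 10 lower in MDA-MB231, against 36.0% of all genes. The surface glycoprotein gene THY1, also in the fibroblast list, was at least 38.6-fold lower in MDA-MB231, whose control value lay below the dim mark (difference −5.29, limma adjusted p = 4e-06). The TGF-beta co-receptor gene ENG differed by −2.76 (limma adjusted p = 1.54e-05), whereas the epithelial adhesion gene EPCAM was higher in MDA-MB231 by 3.04 (limma adjusted p = 1.59e-05). Both Hs578T values of EPCAM lay below the dim mark, which makes it at least 4.48-fold higher. With FBP1, the integrin gene ITGB3 was 0.83 higher in MDA-MB231 (9.53 log2 with FBP1 and 8.70 in the control) and stood at −0.38 in Hs578T. Of the 22 genes, it was the 1 at least 1.5-fold higher in MDA-MB231, where 0.353% of all genes were. The drug efflux gene ABCG2 was above control in both lines, at 0.44 and 0.59. In Hs578T it was the 1 gene of the list at least 1.5-fold higher, where 1.40% of all genes were. CXCR4, a chemokine receptor gene, stood at 0.17 and 0.58, with both Hs578T values below the dim mark. These differences were not called by limma over both lines.

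BMI1 had no value, and the other Polycomb genes, like most genes, differed little with FBP1. Of 17 measured, 0 reached 1.5-fold with FBP1 in either line. Of all genes, 0.353% were higher and 0.337% lower by that size in MDA-MB231, and 1.40% and 1.57% in Hs578T. The medians of the 17 were −0.02 in MDA-MB231 and −0.01 in Hs578T, against 0.00 and 0.03 over all genes. The largest differences were EZH1 at 0.27 and −0.38, CBX7 at 0.13 and −0.33 and EED at −0.27 and −0.18. Between lines, 6 were called, or 35.3% against 36.0% of all genes, 4 of them higher in MDA-MB231, among them the BMI1 relative PCGF6 (0.68, limma adjusted p = 0.00128) and the methyltransferase gene EZH2 (0.66, limma adjusted p = 0.00293), while EED, its partner, was lower (−1.13, limma adjusted p = 0.000513).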
